A study of Mus musculus with 8 samples.

Results

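The proteasome is the protease complex that degrades ubiquitin-tagged proteins in the cytosol and nucleus. The genes described here are all those whose single annotated symbol begins with Psma, Psmb, Psmc, Psmd, Psme, Psmf or Psmg followed by a digit, each read from its probe set of highest mean over the 8 arrays. The rule, which uses no difference between groups, took 50 of 19938 genes. Of these, 48 encode subunits, activators, assembly chaperones or an inhibitor of the proteasome. The other 2, Psmc3ip, a meiotic recombination factor, and Psme3ip1, a protein that binds an activator, share the start of the symbol but are not counted as proteasome genes.

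The macrophages were grown from mouse bone marrow with recombinant M-CSF at 10 ng/ml over 10 days, starved of serum overnight and then given recombinant IL-6 at 50 ng/ml for 4 h before whole-transcript array analysis. IL6raKO cells (4 arrays) came from IL6ralpha flox/flox LysMCre tg/wt mice, in which Cre is expressed from the lysozyme locus in myeloid cells, and Ctrl cells (4 arrays) from IL6ralpha flox/flox mice without Cre. All 8 cultures received IL-6, so a difference between genotypes could not be divided into parts present with and without the cytokine, and receptor loss and the presence of Cre cannot be told apart. The labels give no age. They call the cultures biological replicates without tying each to its own mouse, and the p-values therefore reflect only the spread among these cultures. In such bulk RNA fewer cells of a type and less RNA per cell cannot be told apart. The comparison asks which transcripts differ between IL-6-treated macrophages of the 2 genotypes.

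The 20S core of the proteasome is a barrel of alpha and beta rings, and 3 of its beta subunits cut protein chains: Psmb6 (beta1), Psmb7 (beta2) and Psmb5 (beta5). Interferon gamma induces counterparts of these, Psmb9 (beta1i), Psmb10 (beta2i) and Psmb8 (beta5i), which replace them in newly built particles to form the immunoproteasome. It also induces Psme1 and Psme2, the subunits of the PA28 activator. Macrophages and other immune cells hold immunoproteasomes also at rest, and these particles favour peptides that MHC class I molecules can present. The 19S cap recognises ubiquitin chains and unfolds substrates with a ring of ATPases.

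Il6ra, the targeted gene, stood at 70.6% of its Ctrl level in IL6raKO cells, a difference of -0.50 on the log2 scale (95% confidence interval -0.66 to -0.34), and the groups did not overlap, although its adjusted p in limma was 0.0607 over all genes. The position of its probes relative to the floxed exons was not examined. Stat3, the transcription factor that IL-6 activates, fell by 0.57 (limma adjusted p = 0.0348), a call that did not hold when any single array was left out (adjusted p = 0.0771 to 0.166) although the difference stayed between -0.62 and -0.54. Macrophage markers were bright, with a median percentile of signal of 99.1 over 10 measured genes, of which Cd163 (percentile 33.2) was dim. Ctrl replicate 4 stood apart from the other arrays on the first principal component (21.5, against -6.6 to 4.8).

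Promoter sequences are shown for 5 genes: Psmb8, Psmb9 and Psme1 as inducible genes, and Psmg3 and Psmg1 as the members with the lowest p-values. Each runs from 250 bases before to 50 bases after the annotated transcript start, 5′ to 3′ on the gene's strand, from RefSeq on GRCm38.p6. Capitals mark matches on either strand to TTCNNNGAA, the palindrome that STAT dimers bind, the motif of interferon regulatory factors (GAAA, any 2 bases, then GAAA) or TGACNNNGC, a core of the antioxidant response element that NFE2-related factors bind, where N is any base. No window shown held more than 1 match.
Psmb8 promoter (chr17:34197945-34198244, + strand): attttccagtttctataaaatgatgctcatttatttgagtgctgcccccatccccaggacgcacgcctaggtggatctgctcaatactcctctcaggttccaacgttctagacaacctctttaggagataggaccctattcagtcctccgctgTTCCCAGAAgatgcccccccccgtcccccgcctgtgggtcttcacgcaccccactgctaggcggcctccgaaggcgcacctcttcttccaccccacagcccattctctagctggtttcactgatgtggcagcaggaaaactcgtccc
Psmb9 promoter (chr17:34187281-34187580, - strand): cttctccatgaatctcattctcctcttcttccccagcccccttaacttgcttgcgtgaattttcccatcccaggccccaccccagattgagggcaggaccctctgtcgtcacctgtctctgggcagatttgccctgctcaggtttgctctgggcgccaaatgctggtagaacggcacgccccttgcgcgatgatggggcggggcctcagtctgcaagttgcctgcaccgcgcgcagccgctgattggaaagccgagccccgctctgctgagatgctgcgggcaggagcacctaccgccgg
Psme1 promoter (chr14:55578244-55578543, + strand): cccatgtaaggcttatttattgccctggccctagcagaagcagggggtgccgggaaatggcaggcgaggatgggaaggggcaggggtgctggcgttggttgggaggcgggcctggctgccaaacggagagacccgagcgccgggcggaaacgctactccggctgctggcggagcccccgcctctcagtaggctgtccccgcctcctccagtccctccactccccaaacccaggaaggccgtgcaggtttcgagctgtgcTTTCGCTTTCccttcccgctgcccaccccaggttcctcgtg
Psmg1 promoter (chr16:95990911-95991210, - strand): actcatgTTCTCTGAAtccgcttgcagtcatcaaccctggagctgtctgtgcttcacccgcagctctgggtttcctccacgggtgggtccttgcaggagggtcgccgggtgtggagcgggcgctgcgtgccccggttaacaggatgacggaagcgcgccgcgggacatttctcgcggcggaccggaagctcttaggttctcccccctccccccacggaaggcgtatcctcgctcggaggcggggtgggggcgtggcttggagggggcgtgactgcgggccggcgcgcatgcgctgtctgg
Psmg3 promoter (chr5:139826845-139827144, - strand): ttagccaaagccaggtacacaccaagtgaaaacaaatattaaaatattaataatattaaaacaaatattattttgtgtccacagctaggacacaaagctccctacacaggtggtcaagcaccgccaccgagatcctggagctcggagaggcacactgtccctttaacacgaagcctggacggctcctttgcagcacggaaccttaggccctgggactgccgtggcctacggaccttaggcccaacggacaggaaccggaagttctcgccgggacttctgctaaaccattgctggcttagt

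The capitals in Psmb8 (97 bases before the start, offset -97) and in Psmg1 (offset -243) are STAT-type palindromes, and those in Psme1 (offset 9, inside the transcript) are an interferon regulatory factor motif read on the other strand. Psmb9 and Psmg3 held no match to these letters in this window. Promoters were given for 42 of the 50 genes, in 46 windows. The STAT-type palindrome was found in 3 of these windows (6.52%), those of Psmb8, Psmd2 and Psmg1, against 8.3% of all 32851 promoter windows. The interferon regulatory factor motif was found in 5 member windows (10.9%), those of Psmb3, Psmd4, Psmd9, Psme1 and Psmg4, of which Psme1 alone is among the 5 inducible genes, against 3.44% of all windows. The antioxidant response motif was found in 6 (13%), against 12.4% of all. These matches describe letters only, and no binding was measured.

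Proteasome transcripts differed little between IL6raKO and Ctrl macrophages. With limma, 0 of the 50 genes passed an adjusted p of 0.05, against 6 of all 19938 genes (0.0301%). Psmg3 alone was below an unadjusted p of 0.05, against 7.28% of all genes (4.54% of all genes were so and lower in IL6raKO cells, and 2.74% so and higher). By the exact permutation test, 0 of 50 had p under 0.05, against 4.44% of all genes. With 4 against 4 arrays this p is under 0.05 only where the groups do not overlap at all. Of the 50 differences, 46 were smaller than 0.1 on the log2 scale in either direction, or 92%, against 69.4% of all genes. Among genes above the median signal the shares were 95.7% of 46 members and 75.5% of all genes. The 95% confidence interval of 41 members (82%) lay wholly within 0.25 of zero, a change of 1.19-fold, against 53% of all genes and 65.9% of genes above the median signal. The probe sets of the members were bright, with a median signal percentile of 86.7 and a range of 34.2 to 98, and among the 46 members above the median signal 40 intervals (87.0%) lay within that bound.

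The direction of the small differences was mixed. In IL6raKO cells, 29 members were lower and 21 higher, or 58% lower against 54.2% of all genes, and the median difference was -0.01 for the members and -0.01 for all genes. Above the median signal, 27 of 46 members (58.7%) were lower, against 42.9% of all genes there. The median differences there were -0.0131 for members and 0.0137 for all genes. The split of the 50 members depended on scaling. With arrays centred on their 75th percentile 42 of 50 members were lower, as were 66.3% of all genes. It also depended on Ctrl replicate 4, without which 22 of 50 were lower, as were 50.8% of all genes. No member had its 4 IL6raKO values all on one side of its 4 Ctrl values (0 of 50, against 4.44% of all genes). This is the same count as that of the exact permutation test above and adds nothing to it.

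**Figure D1:**
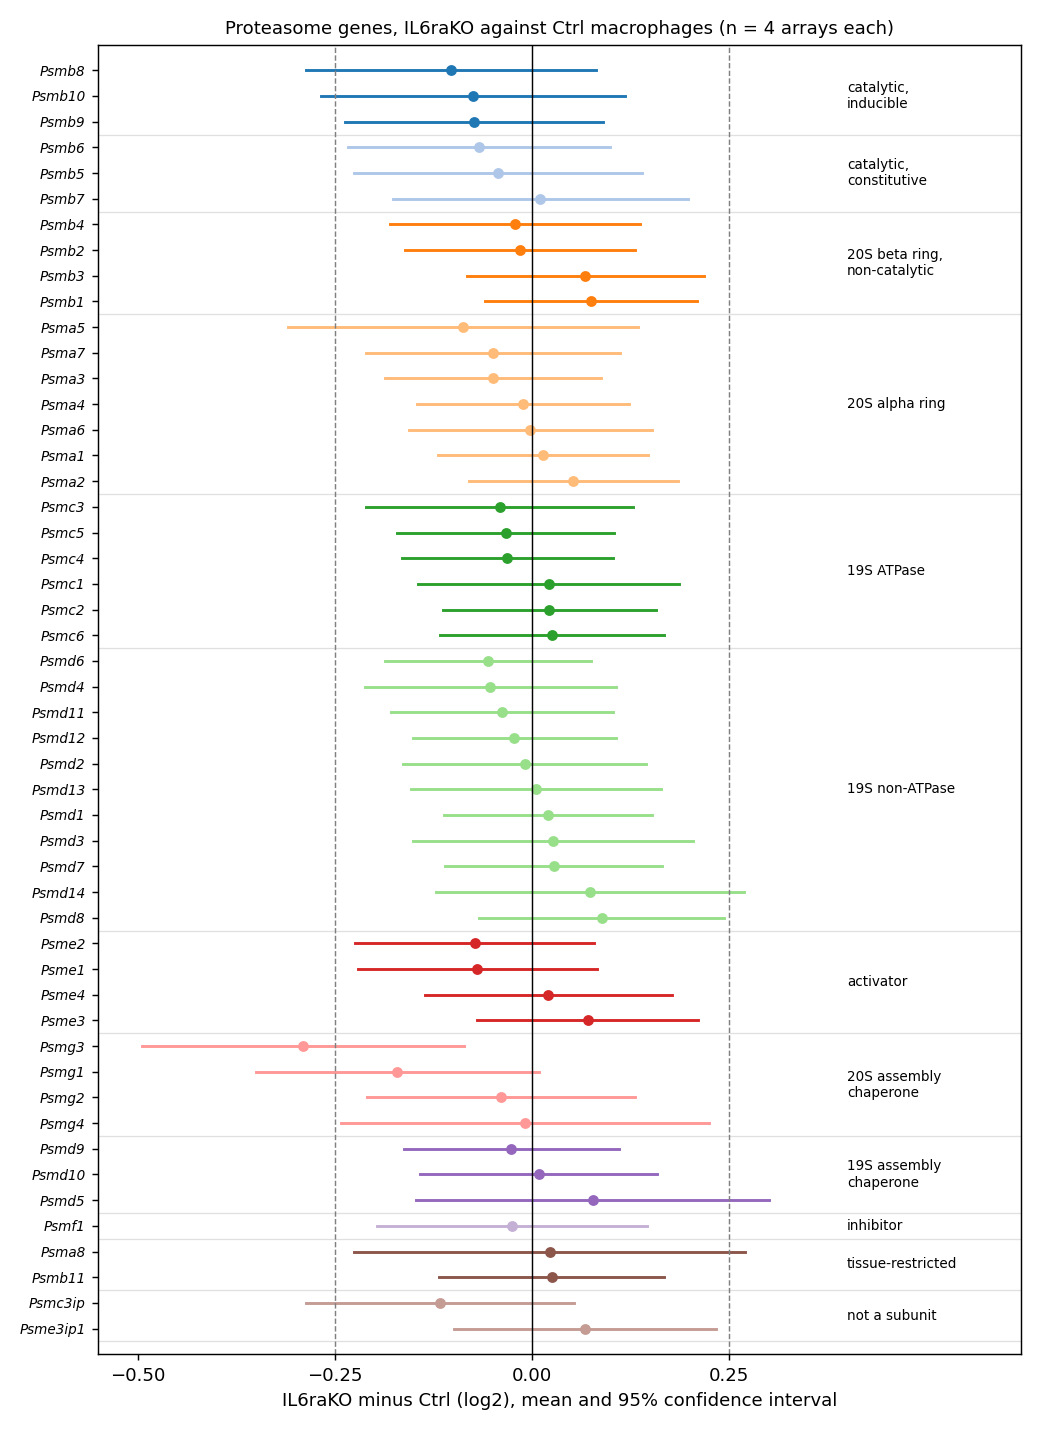
The horizontal axis gives the difference IL6raKO minus Ctrl on the log2 scale for each of the 50 genes, grouped by class and coloured to match, with points for the mean difference, bars for limma's 95% confidence interval and dashed lines at 0.25 on either side of zero. Nearly all points lie within 0.1 of zero, and only the bar of Psmg3 (-0.49 to -0.09) does not reach zero.

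The inducible catalytic subunits were each slightly lower on average in IL6raKO cells, by less than the SD among Ctrl arrays. For Psmb8 and Psmb10 the difference was larger than the SD among IL6raKO arrays (0.03 and 0.04). Psmb8 (beta5i, also called LMP7), the chymotrypsin-like subunit of the immunoproteasome, had log2 values of 8.45, 8.43, 8.49 and 8.49 in IL6raKO arrays 1 to 4, against 8.35, 8.58, 8.57 and 8.78 in Ctrl arrays 1 to 4. The 4 IL6raKO values sat close together, inside the range of the Ctrl values, of which replicate 1 was the lowest of all 8 arrays and replicate 4 the highest. The difference was -0.10 (SE 0.08, 95% confidence interval -0.29 to 0.08, adjusted p = 0.807), 93.1% of the Ctrl level.

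Psmb10 (beta2i, MECL-1), the inducible trypsin-like subunit, had the same extreme arrays. Its values were 7.89, 7.86, 7.95 and 7.90 in IL6raKO arrays, against 7.70, 8.01, 8.09 and 8.11 in Ctrl arrays. The group means differed by -0.07 (95% confidence interval -0.27 to 0.12, adjusted p = 0.873). Again Ctrl replicate 1 was the lowest array and Ctrl replicate 4 the highest. Psmb9 (beta1i, LMP2), which cuts after hydrophobic residues, was at 8.56, 8.37, 8.45 and 8.39 in IL6raKO arrays, against 8.37, 8.57, 8.49 and 8.64 in Ctrl arrays. The groups overlapped, and the difference was -0.07 (95% confidence interval -0.24 to 0.09, adjusted p = 0.852).

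The PA28 subunits that interferon gamma induces were alike in size of difference. Psme1 (PA28 alpha) was at 10.42, 10.40, 10.38 and 10.34 in IL6raKO arrays, against 10.32, 10.43, 10.47 and 10.60 in Ctrl arrays, a difference of -0.07 (95% confidence interval -0.22 to 0.08, adjusted p = 0.85). Psme2 (PA28 beta) was at 7.84, 7.60, 7.76 and 7.66 in IL6raKO arrays, against 7.76, 7.86, 7.72 and 7.80 in Ctrl arrays, a difference of -0.07 (95% confidence interval -0.22 to 0.08, adjusted p = 0.84). Psme1 spanned a narrow range in IL6raKO cells inside a wide one in Ctrl cells, as Psmb8 and Psmb10 did, while Psme2 varied more in IL6raKO cells. A further probe set, annotated to both Psme2 and the related Psme2b and therefore outside the rule, differed in the other direction, by 0.08 (9.02 ± 0.13 in IL6raKO and 8.94 ± 0.19 in Ctrl cells, SD, n = 4 each).

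The size of these 5 differences depended on single arrays. Their median was -0.07 with all arrays, -0.12 without Ctrl replicate 1 and -0.03 without Ctrl replicate 4. Without Ctrl replicate 1, Psmb8 differed by -0.18 and Psmb10 by -0.17, and their IL6raKO and Ctrl values, like those of Psme1, no longer overlapped (adjusted p = 0.534 for Psmb8, 0.514 for Psmb10 and 0.628 for Psme1, where 9.5% of all genes did not overlap). Without Ctrl replicate 4, Psmb8 differed by -0.03 and Psmb10 by -0.03. Psme2 moved instead with IL6raKO arrays, to -0.11 without IL6raKO replicate 1 and -0.0353 without IL6raKO replicate 2. Ctrl replicate 4 was the highest of all 8 arrays for 4 of these 5 genes, for 17 of the 50 members (34%) and for 23.6% of all genes. Ctrl replicate 1 was the lowest array for 3 of the 5 genes, for 9 of the 50 members and for 13.2% of all genes. More members, 13 of the 50 (26%), were lowest in IL6raKO replicate 1, as were 12.4% of all genes, but 0 of the 5. The mean log2 signal of 12 mast cell and basophil markers, 11 of them lower in IL6raKO cells and 0 called, was 5.81 to 6.34 in IL6raKO arrays and 6.02 to 6.51 in Ctrl arrays, with Ctrl replicate 4 the highest. That of 10 neutrophil and granulocyte precursor markers, 7 of them lower and 0 called, was 5.75 to 5.98 in IL6raKO arrays and 5.83 to 6.11 in Ctrl arrays, again highest in Ctrl replicate 4. Of 5 measured B cell markers 5 were lower and 0 called, with a mean of 5.29 to 5.41 in IL6raKO arrays and 5.40 to 5.57 in Ctrl arrays. Of T and NK cell, stromal and dendritic cell markers, 6 of 8, 5 of 6 and 4 of 6 were lower and 0 called. Ctrl replicate 4 was the highest array for the first and second of these lists, and the lowest Ctrl array for the dendritic list. All these lists were dim, with median signal percentiles of 26.8 (T and NK cell) to 38.55 (dendritic cell). Over all genes 54.2% were lower, and above the median signal 42.9%. The mean of the macrophage markers was 11.05 to 11.08 in IL6raKO arrays and 11.004 to 11.13 in Ctrl arrays, lowest in Ctrl replicate 4. The part of these markers in the proteasome values was not tested.

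**Figure D2:**
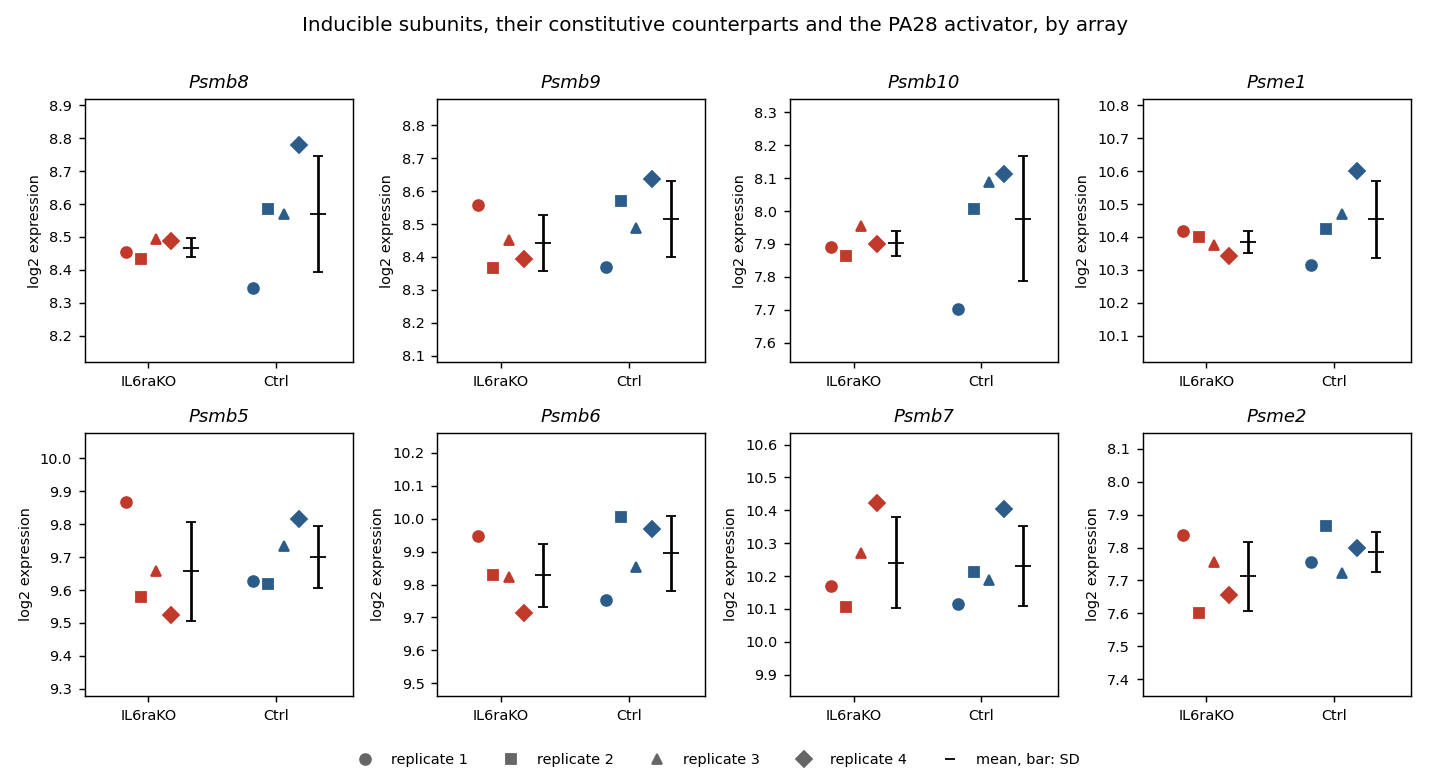
Each panel gives log2 expression (vertical axis, a span of 0.8 in every panel) in 4 IL6raKO arrays (red) and 4 Ctrl arrays (blue), with marker shape for the replicate number and a bar for the mean and SD. Psmb8, Psmb10 and Psme1 show tight IL6raKO values inside a wide Ctrl range set by Ctrl replicates 1 and 4.

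The constitutive catalytic subunits did not differ beyond their spread. Psmb5 (beta5) was at 9.87, 9.58, 9.66 and 9.52 in IL6raKO arrays, against 9.63, 9.62, 9.73 and 9.82 in Ctrl arrays, a difference of -0.04 (95% confidence interval -0.23 to 0.14). Psmb6 (beta1) was at 9.95, 9.83, 9.82 and 9.71 in IL6raKO arrays, against 9.75, 10.01, 9.85 and 9.97 in Ctrl arrays, a difference of -0.07 (95% confidence interval -0.23 to 0.10). Psmb7 (beta2) was at 10.17, 10.10, 10.27 and 10.42 in IL6raKO arrays, against 10.12, 10.21, 10.19 and 10.40 in Ctrl arrays, a difference of 0.01 (95% confidence interval -0.18 to 0.20). In all 3 the groups overlapped, and for Psmb5 and Psmb7 the highest of the 8 arrays was an IL6raKO array. The adjusted p-values were 0.937 for Psmb5, 0.869 for Psmb6 and 0.986 for Psmb7.

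To compare inducible and constitutive subunits by group, the log2 value of the constitutive subunit was subtracted from that of the inducible one in each array. The value itself is set by both probe sets and carries no stoichiometry, so only its change between groups was read. At the beta5 position, Psmb8 minus Psmb5 was -1.41, -1.15, -1.16 and -1.04 in IL6raKO arrays, against -1.28, -1.04, -1.16 and -1.04 in Ctrl arrays. These values overlapped, with a change of -0.06 (interval -0.38 to 0.24, two-sided exact permutation p = 0.657, 0.857 after adjustment over 3 pairs). At the beta2 position, Psmb10 minus Psmb7 was -2.28, -2.24, -2.31 and -2.52 in IL6raKO arrays, against -2.42, -2.21, -2.10 and -2.29 in Ctrl arrays. The change was -0.09 (interval -0.42 to 0.17, exact permutation p = 0.371, adjusted 0.857), also with overlap.

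The beta1 position was the steadiest. Psmb9 minus Psmb6 was -1.39, -1.46, -1.37 and -1.32 in IL6raKO arrays, against -1.38, -1.44, -1.37 and -1.33 in Ctrl arrays. The SD over 4 arrays was 0.06 in IL6raKO and 0.04 in Ctrl cells, smaller than that of Psmb9 alone (0.08 and 0.12) or Psmb6 alone (0.10 and 0.11). Both genes were highest in replicate 1 among the IL6raKO arrays and lowest in replicate 1 among the Ctrl arrays. The change was -0.01 (interval -0.13 to 0.12, exact permutation p = 0.857, adjusted 0.857). Each interval holds the shifts that the exact test did not reject at 0.05, and the smallest p that 4 against 4 arrays allow is 0.0286.

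**Figure D3:**
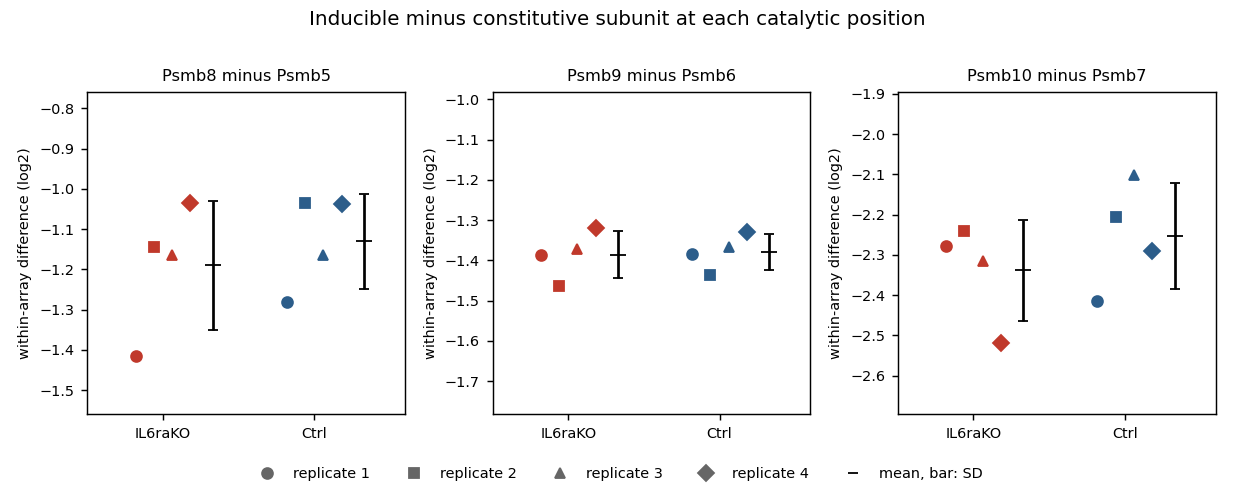
Each panel gives, per array, the log2 value of the inducible subunit minus that of the constitutive subunit at 1 catalytic position (vertical axis, a span of 0.8) for 4 IL6raKO arrays (red) and 4 Ctrl arrays (blue), with bars for the mean and SD. The groups overlap at each position, and Psmb9 minus Psmb6 stays between -1.46 and -1.32 in all 8 arrays.

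The subunits that form the rest of the 20S barrel were measured with narrow intervals. Of the 7 alpha ring genes, Psma1 to Psma7, 0 were called, 5 were lower and 2 higher, and the median difference was -0.01. The extremes were Psma5 at -0.09 (95% confidence interval -0.31 to 0.13) and Psma2 at 0.05 (95% confidence interval -0.08 to 0.19). The Psma5 value depended on single IL6raKO arrays and was -0.0063 without replicate 1 and -0.146 without replicate 4. Of the 4 beta subunits without a catalytic site of their own, Psmb2 and Psmb4 each differed by -0.02. Psmb1 was at 8.87, 8.89, 8.92 and 8.90 in IL6raKO arrays, against 8.87, 8.76, 8.74 and 8.91 in Ctrl arrays, a difference of 0.07 (95% confidence interval -0.06 to 0.21). Psmb3 was at 8.29, 8.29, 8.23 and 8.49 in IL6raKO arrays, against 8.20, 8.30, 8.28 and 8.25 in Ctrl arrays, a difference of 0.07 (95% confidence interval -0.08 to 0.22) that was 0.0133 without IL6raKO replicate 4. The groups overlapped for both genes. A second Psmb3 probe set differed by 0.30 (7.86 ± 0.08 in IL6raKO and 7.56 ± 0.25 in Ctrl cells, SD, n = 4 each). Its limma p was 0.0343 unadjusted and 0.822 adjusted over all probe sets, and Ctrl replicate 4 was its lowest array at 7.29. Psma3, with 3 probe sets, and Psma5, Psmc1 and Psmd2, with 2 each, had probe sets whose differences lay within 0.1 of each other. Those of Psma3 ran from -0.08 to -0.04, and those of Psmc1 had opposite signs (0.02 for the one used and -0.08).

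No gene of the 19S cap was called. Of the 6 ATPases of its base, Psmc1 to Psmc6, which unfold the substrate, 3 were lower and 3 higher, between Psmc3 at -0.04 and Psmc6 at 0.03, and all 6 intervals lay within 0.25 of zero. Of the 11 other cap subunits, 5 were lower and 6 higher with a median of 0.01. Their extremes were Psmd6, a lid subunit, at -0.06 (95% confidence interval -0.19 to 0.07) and Psmd8, another lid subunit, at 0.09 (95% confidence interval -0.07 to 0.24, adjusted p = 0.80). Psmd8 was at 9.97, 9.77, 9.90 and 9.77 in IL6raKO arrays, against 9.72, 9.69, 9.88 and 9.76 in Ctrl arrays, with 1 Ctrl value inside the IL6raKO range. The ubiquitin receptor Psmd4 differed by -0.05, and Psmd14, the deubiquitinase that removes ubiquitin chains at the cap, by 0.07 (95% confidence interval -0.12 to 0.27). Psmd1 and Psmd2, the large scaffold subunits of the base, differed by 0.02 and -0.01.

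The other activators and the inhibitor differed by no more than 0.1 in either direction. Psme3, which encodes the nuclear PA28 gamma, was at 9.63, 9.75, 9.69 and 9.70 in IL6raKO arrays, against 9.67, 9.51, 9.70 and 9.59 in Ctrl arrays, a difference of 0.07 (95% confidence interval -0.07 to 0.21). Psme4, the PA200 activator, differed by 0.02, and Psmf1, which encodes the inhibitor PI31, by -0.03. Psma8, a testis form of an alpha subunit, and Psmb11, the catalytic beta5t of thymic epithelium, had dim probe sets (signal percentiles 36.1 and 42) and differed by 0.02 and 0.03. Psma8 was at 5.86, 5.85, 5.78 and 5.94 in IL6raKO arrays, against 5.94, 5.49, 5.78 and 6.12 in Ctrl arrays, so that the Ctrl values enclosed the IL6raKO values. Psmb11 was at 6.05, 6.04, 6.12 and 6.20 in IL6raKO arrays, against 6.07, 6.16, 5.99 and 6.09 in Ctrl arrays.

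The widest differences were those of Psmg3 and Psmg1, chaperones that assemble the 20S core. Psmg3, which works as a dimer with Psmg4, was at 5.43, 5.77, 5.54 and 5.75 in IL6raKO arrays, against 5.72, 5.97, 5.95 and 6.01 in Ctrl arrays. Only Ctrl replicate 1 fell inside the IL6raKO range. The difference was -0.29 (SE 0.09, 95% confidence interval -0.49 to -0.09), 81.8% of the Ctrl level, with an unadjusted limma p of 0.00949, an adjusted p of 0.608 and a two-sided exact permutation p of 0.0857. The probe set was dim, at signal percentile 34.2.

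Psmg1, which pairs with Psmg2, was at 7.28, 7.06, 7.40 and 7.34 in IL6raKO arrays, against 7.35, 7.55, 7.41 and 7.45 in Ctrl arrays. IL6raKO replicate 2 was the lowest array, the groups overlapped at 1 Ctrl value, and the difference was -0.17 (SE 0.08, 95% confidence interval -0.35 to 0.01, adjusted p = 0.701, exact permutation p = 0.0571). Without IL6raKO replicate 2 it was -0.10. Of their partners, Psmg4 differed by -0.01 (95% confidence interval -0.24 to 0.22) and Psmg2 by -0.04 (95% confidence interval -0.21 to 0.13), and the difference between partners was not tested. Of the chaperones of the 19S base, Psmd5 differed by 0.08 (95% confidence interval -0.15 to 0.30), Psmd9 by -0.03 and Psmd10 (gankyrin) by 0.01. Psmd5 was at 7.56, 7.93, 8.00 and 8.05 in IL6raKO arrays, against 7.74, 7.95, 7.77 and 7.77 in Ctrl arrays. Its difference ranged from 0.0222 without IL6raKO replicate 4 to 0.185 without IL6raKO replicate 1, the lowest array.

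**Figure D4:**
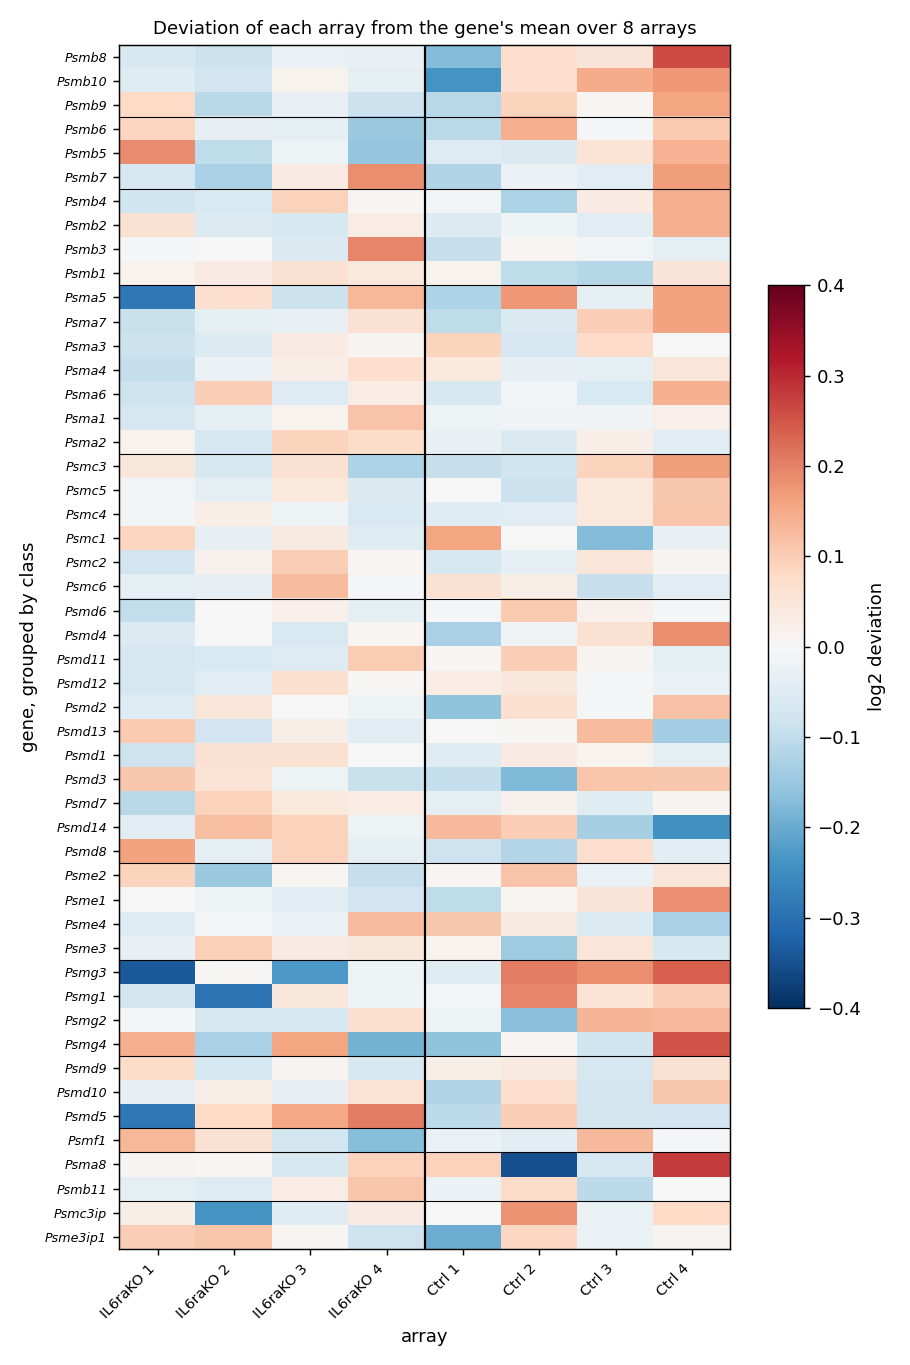
Rows are the 50 genes grouped by class and columns the 4 IL6raKO arrays, then the 4 Ctrl arrays, with colour for the log2 deviation of an array from the gene's mean over all 8 arrays. Ctrl replicate 4 is high in many rows (mean deviation 0.06 over the 50 genes) and Ctrl replicate 1 low (-0.04), while no class is of 1 colour throughout a genotype.

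Replicate scatter had no common direction over the whole set. The SD was larger among Ctrl than among IL6raKO arrays for 27 of 50 members, or 54%, against 58.9% of all genes. For the 5 inducible genes it was larger in Ctrl cells for 4, with SDs for Psmb8 of 0.03 in IL6raKO and 0.18 in Ctrl cells, for Psmb10 of 0.04 and 0.19, for Psme1 of 0.03 and 0.12 and for Psmb9 of 0.08 and 0.12. Psme2 was the exception, with 0.11 in IL6raKO and 0.06 in Ctrl cells. No test of these SDs was made. Of the 2 members not counted as proteasome genes, Psmc3ip differed by -0.12 (95% confidence interval -0.29 to 0.05) and Psme3ip1 by 0.07. Psmc3ip was at 6.41, 6.15, 6.34 and 6.42 in IL6raKO arrays, against 6.39, 6.57, 6.37 and 6.47 in Ctrl arrays, and the groups overlapped.

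No gene on a list of proteasome partners was called. Of 29 listed symbols for maturation factors, shuttle proteins, associated enzymes and transcriptional regulators, 18 were measured and 0 were called in either direction. Of the 18, 14 were higher and 4 lower in IL6raKO cells (22.2% lower, against 54.2% of all genes and 42.9% of genes above the median signal), with a median of 0.07 (all genes -0.01). Ubqln2, a shuttle that carries ubiquitinated proteins to the cap, was 0.15 higher without overlap between groups (95% confidence interval 0.02 to 0.28, unadjusted p = 0.0287, adjusted p = 0.669). Txnl1, a thioredoxin-like protein bound to the cap, differed by 0.15, Ube3c, a proteasome-bound ubiquitin ligase, by 0.15, and Nfe2l2, the regulator of antioxidant genes, by 0.13, with adjusted p between 0.683 and 0.701. Nfe2l2 did not overlap between groups either (2 of 18, against 4.44% of all genes). Ctrl replicate 4 was the lowest array for Ubqln2, Txnl1 and Nfe2l2, and for the listed partners Uchl5, Usp14, Ecpas, Zfand5 and Akirin2. Over all genes it was the lowest array for 15.1%. It was the highest array for Pomp and Ubqln4, and for 23.6% of all genes. The part of this array in the direction of the list was not tested. Nfe2l1, which restores proteasome transcription when the proteasome is inhibited, differed by -0.02 (95% confidence interval -0.16 to 0.11), and Pomp, the maturation factor of the 20S core, by -0.05 (95% confidence interval -0.20 to 0.10).

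In mouse, Psmb9 and Psmb8 lie in the MHC, with Tap1 between them and Tap2 after Psmb8, in the gene order of GRCm38.p6. Of 12 listed genes of peptide processing and its regulators, 11 were measured and 0 were called. Tap1 and Tap2, the subunits of the peptide transporter into the endoplasmic reticulum, differed by -0.01 (95% confidence interval -0.16 to 0.15) and 0.12 (95% confidence interval -0.05 to 0.28), where Psmb9 and Psmb8 differed by -0.07 and -0.10. Erap1, the aminopeptidase that trims these peptides, differed by 0.11, Tapbpl, a peptide editor, by -0.11 and B2m, the light chain of MHC class I, by 0.01. Irf1, a transcription factor through which interferon gamma induces Psmb8 and Psmb9, differed by -0.22 (95% confidence interval -0.38 to -0.06, unadjusted p = 0.0102, adjusted p = 0.616), and a second Irf1 probe set by -0.0047.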

How the data were processed

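Total RNA from 8 IL-6-treated macrophage cultures was made into biotin-labelled cDNA for Affymetrix GeneChips with a whole-transcript labelling assay, per the labels. The table deposited by the authors gives 1 log2 value per array for each of 35556 probe sets. The submitters' processing notes list RMA (background correction, quantile normalization and probe summary) and R 2.13.1, and the genome build was not given in the sources used. Values between 1.96 and 14.2 set the log2 scale. RMA compresses differences of dim probe sets. There is no read depth for arrays, and the number of arrays limits the precision.

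GEO's platform annotation gave 21789 probe sets exactly 1 symbol, and the probe set of highest mean over all 8 arrays stood for a gene, which left 19938 genes. The 50 members had 56 such probe sets, and all matched RefSeq on GRCm38.p6, used for names, gene order and promoters. Limma 3.58.1 (R 4.3.3) compared IL6raKO with Ctrl on the deposited values, two-sided, with Benjamini-Hochberg adjustment over all genes, no covariate and no filter. The fit was tested on simulated data. Genes given by array are the 5 inducible genes, their 3 constitutive counterparts, 2 tissue-restricted genes and the 4 of lowest p in each direction, with Psmd5 added after its values were seen. The extremes of each class and up to 4 genes of lowest p on each other list are named too, and further genes were named after their values were seen. The members and lists were chosen with earlier results of these data known. Alternatives covered the variance model, a replicate block, filters on dim genes, further normalization, averaging of probe sets, array weights and leaving out each array.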

Additional observations from a re-analysis of the deposited data

Results flagged for a closer look

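Among 76 sets of 4 values (a named gene or pair in 1 genotype), 2 had a value set far off from the rest of its set. About 1 in 20 such sets, or 3.8 here, would do so by chance. Psmd5, a chaperone of the 19S base, reached 7.95 in Ctrl replicate 2, while its remaining Ctrl values lay between 7.74 and 7.77. Erap1, the peptide-trimming aminopeptidase, reached 8.92 in Ctrl replicate 1, while its remaining Ctrl values lay between 8.72 and 8.74. Neither gene was called between genotypes.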

How the results depend on the processing

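No member was called over all genes under any of the 18 alternatives run for this count (limma, or an adjusted p under 0.1). The count over all genes, 6, became 22 with a trended and robust variance model, 11 with either filter on dim genes, 3 with quantile normalization of all probe sets, 9 with that of the genes alone (chosen after seeing the data), 12 at an adjusted p under 0.1, 0 over all probe sets and 0 with the replicate block, and 0 to 1 with an array left out. Members at an unadjusted p under 0.05 numbered 1 in the fit of all arrays. They numbered 2 with the trended model, either quantile normalization, 75th percentile centring and probe sets averaged per gene (6.58% to 8.65% of all genes). With averaging these were Psmb3, at 0.18, and Psmg3. By the exact permutation test they numbered 0 (4.44% of all genes), which is the same count as that of members without overlap. With an array left out they numbered 1 to 4, where the share of all genes was 5.71% to 8.98%. The 4 (Psmb8, Psmb10, Psmg1 and Psmg3, where the share of all genes was 8.98%) and the 5 below came without Ctrl replicate 1. Members without overlap numbered 1 with 75th percentile centring (4.95% of all genes) and 0 to 5 with an array left out (6.73% to 9.5% of all genes). The pair changes ranged with an array left out from -0.11 to 0.0147 for Psmb8 minus Psmb5, from -0.14 (without Ctrl replicate 1) to -0.0251 (without IL6raKO replicate 4) for Psmb10 minus Psmb7 and from -0.0283 to 0.0193 for Psmb9 minus Psmb6.

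The 35 named genes kept direction and side of the threshold in 557 of 591 alternatives. The trended model, the replicate block and the filters on dim genes leave a gene's difference unchanged by design. Most named genes also had an adjusted p far above the threshold and could hardly change side. The count is therefore no measure of robustness. Il6ra passed the threshold with the trended model, both filters, 75th percentile centring and quantile normalization of the genes alone (adjusted p = 0.00762 to 0.0476), and Stat3 did not pass with the replicate block (adjusted p = 0.161). Near-zero differences changed sign: Psmb7 was -0.0014 with quantile normalization of all probe sets, Psmb7 was -0.0063 and Psmc6 -0.0048 with that of the genes alone, and with 75th percentile centring Psmb7 was -0.0175, Psma8 -0.0057, Psmb11 -0.0026 and Psmc6 -0.0025. With an array left out, differences ranged from -0.11 to 0.0015 for Psmb5, -0.0494 to 0.0682 for Psmb7, -0.0906 to 0.12 for Psma8, -0.0071 to 0.0543 for Psmb11, -0.0668 to 0.0231 for Psmb4, -0.0785 to 0.0079 for Psmc3 and -0.0126 to 0.0498 for Psmc6. The cause of these changes was not tested. Same-numbered arrays of the groups did not deviate together over all genes (correlations -0.01 to 0.04), which cannot show whether the cultures were paired. With the replicate block the difference of Psmg3 was -0.29 by design, and its limma adjusted p was 0.632. The filter above the median signal left 46 members and no Psmg3, Psmc3ip, Psma8 or Psmb11.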
